A study of Mus musculus with 24 samples.

Results

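Irf7, Ifit1, Rsad2 and Slfn4 are genes associated with the interferon response that had a row in at least 1 of the 4 deposited tables of genes differing between Smarcad1 knockout (KO) and wild type (WT) mouse intestinal epithelium. They are 4 of the 82 different genes that the tables hold. A table lists a gene only where it passed the false discovery rate (FDR) limit of 0.1 set by the authors, so the 4 genes were chosen by a measured value, their KO against WT comparison in at least 1 population, and their presence in a table is not a finding. All rows carry the levels of all 8 groups, so each gene can be followed through every population once a single table lists it.

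The data are poly(A) RNA-seq of 24 libraries in 8 groups of 3, and whether the 3 came from separate animals is not given in the labels. The KO animals carried a Vil-cre transgene, which deletes floxed Smarcad1 in cells that use the villin promoter, that is, in epithelium of the small and large intestine. The labels call the controls wild type, and whether they carried cre or floxed alleles is not given in the sources used here. All mice had the strain C57BL/6 Lgr5-GFP, a knock-in reporter of the stem cell gene Lgr5, and their ages are not given. Sorting gave intestinal stem cells (ISC, GFP-high) and transit amplifying cells (TA, GFP-medium) from small intestinal crypts, adult enterocytes (AE) from small intestinal villi, and colon epithelium (CO) from colon crypts. AE and CO were gated as Epcam-high and negative for CD31 and CD45, markers of endothelial and blood cells, whereas the ISC and TA sorts used GFP without antibody staining. Between 1000 and 80000 ISC and between 1000 and 135000 TA were collected per sample, against 100000 AE and 75000 to 100000 CO.

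The deposited values are group means of normalised read counts on the log2 scale. Values of single libraries and total counts were not analysed here, so the spread among the 3 libraries of a group and the depth are not known here, no difference below carries an error, and no test was made. Each difference is KO minus WT in log2 units, where 1 is a change of 2 times. Except under alternative settings, counts over the 4 genes are set beside the percentage of all genes in the tables that meet the same condition. The tables hold selected genes only. The deleted gene itself, Smarcad1, was lower in KO in every population, by -0.60 in AE, -0.87 in CO, -0.88 in TA and -0.77 in ISC. Per the paper only some of its exons are floxed, while reads were counted over the exons of the merged transcripts. These values therefore do not measure how complete the deletion was. The paper quantifies reads over the floxed exons themselves in these same populations, in values not used here. It also reports no detectable protein in various cell types.

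Interferons are secreted proteins that cells release on sensing viral or bacterial nucleic acids. They act through cell surface receptors and their kinases, and the transcription factors activated in this way bind interferon-stimulated response elements in the promoters of target genes. IRF7 is a transcription factor that drives type I interferon genes and is itself an interferon target. IFIT1 binds viral RNA that lacks the methylation of host caps, and RSAD2, also called viperin, makes a nucleotide analogue that stops viral RNA synthesis. SLFN4 belongs to the Schlafen family, a cluster of genes with roles in immune cells and in the interferon response. The intestinal epithelium is exposed to microbes and expresses many of these genes without infection.

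The genes lie on different chromosomes of GRCm38. Irf7 (ENSMUSG00000025498) is at chr7:141262706-141266481 on the minus strand, Ifit1 (ENSMUSG00000034459) at chr19:34640871-34650009 on the plus strand, Rsad2 (ENSMUSG00000020641) at chr12:26442746-26456452 on the minus strand and Slfn4 (ENSMUSG00000000204) at chr11:83175186-83190216 on the plus strand. Their promoters are shown because transcription factors activated by interferon bind the interferon-stimulated response element in promoters of target genes. Each window is 300 bases long, from 250 bases before to 50 bases after the RefSeq start on GRCm38.p6, 5′ to 3′ in the direction of the gene. Capitals mark matches to the core of that element, GAAA followed by any 2 bases and a further GAAA, on either strand. The windows are chr7:141266375-141266674 (minus strand), chr19:34640639-34640938 (plus strand), chr12:26456403-26456702 (minus strand) and chr11:83174936-83175235 (plus strand) in the order printed.
Irf7: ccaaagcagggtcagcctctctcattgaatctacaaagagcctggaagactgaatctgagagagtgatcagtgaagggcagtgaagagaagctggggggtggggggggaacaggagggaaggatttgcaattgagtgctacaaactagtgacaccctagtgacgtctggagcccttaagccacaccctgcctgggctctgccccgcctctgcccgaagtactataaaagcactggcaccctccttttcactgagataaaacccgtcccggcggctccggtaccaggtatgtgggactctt
Ifit1: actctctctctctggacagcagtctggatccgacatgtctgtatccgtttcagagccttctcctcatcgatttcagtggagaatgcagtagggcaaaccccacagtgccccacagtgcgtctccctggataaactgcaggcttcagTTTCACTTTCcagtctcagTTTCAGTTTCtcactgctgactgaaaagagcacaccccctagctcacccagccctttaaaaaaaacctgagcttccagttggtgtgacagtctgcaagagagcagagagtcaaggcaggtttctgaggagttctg
Rsad2: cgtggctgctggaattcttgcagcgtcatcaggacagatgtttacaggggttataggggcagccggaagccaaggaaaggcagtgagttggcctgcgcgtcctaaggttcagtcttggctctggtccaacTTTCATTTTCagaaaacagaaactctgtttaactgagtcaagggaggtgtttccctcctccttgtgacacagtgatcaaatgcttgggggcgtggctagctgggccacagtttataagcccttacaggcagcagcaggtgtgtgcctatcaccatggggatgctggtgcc
Slfn4: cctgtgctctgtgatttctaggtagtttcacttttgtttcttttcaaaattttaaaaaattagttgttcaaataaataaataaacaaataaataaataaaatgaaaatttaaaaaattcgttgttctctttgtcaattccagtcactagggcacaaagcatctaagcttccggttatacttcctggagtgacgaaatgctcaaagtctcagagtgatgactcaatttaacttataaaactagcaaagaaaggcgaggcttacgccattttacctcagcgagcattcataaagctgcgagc

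Ifit1 had 2 matches on the strand opposite to the gene, beginning at positions -104 and -85 from the start. Rsad2 had 1 match on the opposite strand, at -120. No match stood in the windows of Irf7 and Slfn4, which says only that these letters are not in these windows. The motif was present in 3.44% of 32841 promoter windows and in 3 of 72 windows (4.17%) of the other genes in the tables. The shorter AANNGAAA, which overlaps the longer motif and was found in 23.9% of all windows, matched in Ifit1, Rsad2 and Slfn4 but not in Irf7. In Slfn4 it began at -225, -214 and -152. A second motif, TTCNNNGAA of the gamma-activated sequence, matched in none of the 4 windows. It was found in 8.30% of all windows and in 11.1% of those of the other genes in the tables. The Slfn4 window was also poor in G and C, at 33.7%, against a median of 52.7% over all windows, and 2.84% of windows had as little or less. A match is a description of letters and was not measured as a binding site.

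Irf7, the transcription factor of the group, was abundant in enterocytes and lower in KO colon. In WT its log2 level was 6.87 in AE, 5.31 in CO, 3.76 in TA and 3.23 in ISC. In KO it was 6.70 in AE, 3.31 in CO, 4.12 in TA and 4.03 in ISC. CO therefore moved from the second highest WT level to the lowest KO level, while AE stayed the highest in both genotypes.

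The KO minus WT difference of Irf7 was -2.00 in CO, so that KO held 25.0% of the WT level. CO was the one table that listed Irf7, and 10 of 80 genes had a lower difference there. The differences were -0.17 in AE, 0.37 in TA and 0.79 in ISC, where KO held 88.9%, 129% and 173% of WT. The gap between the genotypes in AE was thus small beside that in CO. In these bulk libraries, fewer cells of a type and less RNA per cell cannot be told apart. Within KO, the AE level was 10.5 times the CO level, against 2.95 times within WT.

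**Figure D1:**
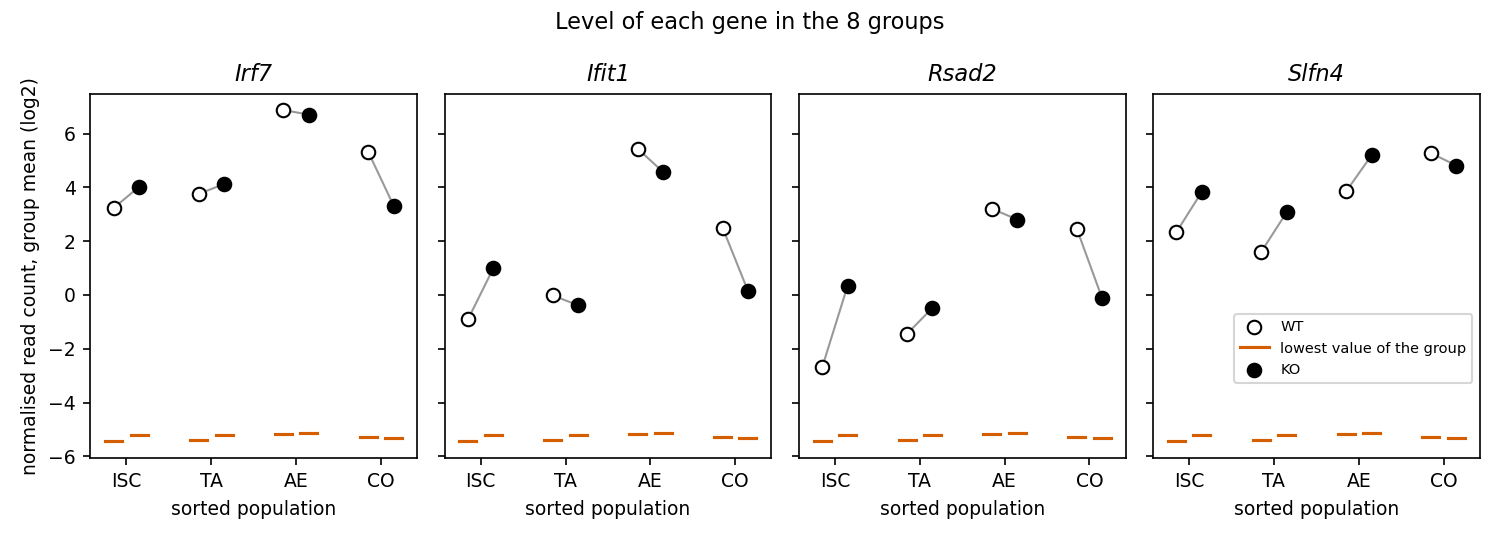
Log2 group means (vertical axis) of Irf7, Ifit1, Rsad2 and Slfn4 in WT (open circles) and KO (filled circles) of the 4 sorted populations (horizontal axis). Orange dashes give the lowest value of any gene in that group, and there are no error bars because the tables used here hold group means. For Irf7, Ifit1 and Rsad2 the KO circle is far below the WT circle in CO and above it in ISC, and for Slfn4 it is above WT in each small intestinal population.

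Ifit1, the cap-sensing effector, had the widest range of the 4 genes, 6.35 log2 units between its highest and lowest group. In WT its log2 level was 5.44 in AE, 2.51 in CO, -0.02 in TA and -0.91 in ISC. In KO it was 4.57 in AE, 0.15 in CO, -0.38 in TA and 1.00 in ISC. The villus level thus stood far above the crypt levels in both genotypes: WT AE was 81.3 times WT ISC, and KO AE was 11.9 times KO ISC.

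Ifit1 was listed in AE, where the difference was -0.87 and KO held 54.8% of WT. Its difference in CO was larger, -2.36 with 19.5% of WT remaining, but the CO table did not list it. In ISC the difference was in the other direction, 1.91, and KO held 375% of WT. With a pseudocount of 1, added on the linear scale before the log to damp low values, that difference was 0.97. In TA the difference was -0.36. The size of a difference and presence in a table therefore did not go together for Ifit1, and the spread among libraries that would bear on this was not analysed here.

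Rsad2, the antiviral enzyme, differed in opposite directions in CO and ISC, and on the deposited scale its differences there were wider than those of the other 3 genes. Its log2 level in WT was 3.21 in AE, 2.47 in CO, -1.44 in TA and -2.69 in ISC. In KO it was 2.80 in AE, -0.13 in CO, -0.48 in TA and 0.35 in ISC. The 4 WT groups spanned 5.90 log2 units, and the KO groups were closer together, with AE alone above the rest.

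In CO the difference of Rsad2 was -2.59, a 6.04-fold lower level in KO, and the CO table listed it. With a pseudocount of 1 it was -1.77, against -1.90 for Irf7. Only 3 of 80 genes had a lower difference there. In ISC the difference was 3.04, an 8.21-fold higher level in KO and the sixth highest of 82 genes, yet the ISC table did not list it. The WT ISC value was only 6.72 times the lowest value of any gene in that group, so this fold rests on a level near the low end of the column, and with the pseudocount the difference was 0.98, against 1.34 for Slfn4. The differences in TA and AE were 0.96 and -0.40, and the former was 0.33 with the pseudocount.

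Slfn4, the Schlafen gene, was higher in KO throughout the small intestine. Its log2 level in WT was 3.85 in AE, 5.27 in CO, 1.61 in TA and 2.34 in ISC. In KO it was 5.19 in AE, 4.81 in CO, 3.07 in TA and 3.84 in ISC. Unlike the other 3 genes, Slfn4 had its highest WT level in CO, 1.42 log2 units above AE.

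The differences of Slfn4 were 1.34 in AE, 1.47 in TA and 1.5 in ISC, so that KO held 254%, 276% and 283% of WT. The TA and AE tables listed it and the ISC table did not, although the 3 differences were close on the deposited scale. Relative to the median of unlisted genes they were 1.51 in AE, 1.31 in TA and 1.16 in ISC. In CO the difference was -0.46, with 72.7% of WT remaining. With KO higher in AE and lower in CO, AE became the population with the highest Slfn4 level in KO. The AE and CO levels in KO were 0.38 apart.

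**Figure D2:**
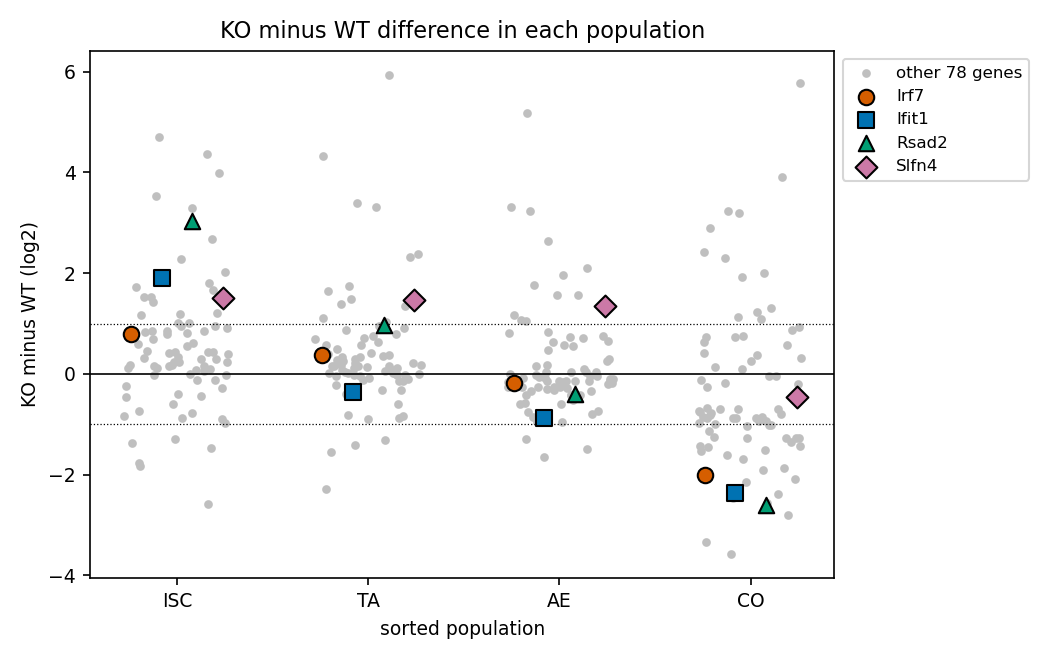
KO minus WT difference in log2 units (vertical axis) in each sorted population (horizontal axis), with the 4 genes as coloured symbols and the other 78 genes as grey points spread sideways for visibility. Dotted lines mark differences of 1 and -1. In CO, Irf7, Ifit1 and Rsad2 lie below -1, and in ISC, Ifit1, Rsad2 and Slfn4 lie above 1.

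In CO, 3 of the 4 genes were lower in KO by at least 1, all but Slfn4, and 38.8% of the genes in the tables met the same condition. The CO table supplied 56 of the 82 genes, Irf7 and Rsad2 among them, so nothing is read from this count. In ISC, 3 of 4 were higher by at least 1, all but Irf7, against 26.8% of genes. With a pseudocount of 1, 1 of 4 was past that limit, Slfn4. The share of all genes was not computed with the pseudocount, so nothing is read from that change. In TA, Slfn4 alone was higher by at least 1, against 17.3%, and in AE likewise Slfn4, against 16.5%. The TA and AE tables listed Slfn4 for these same comparisons, so nothing is read from these counts either. None of the 4 was lower by at least 1 in AE, TA or ISC, where 3.80%, 4.94% and 7.32% of genes were. Just outside the limit were Rsad2 in TA at 0.96, Ifit1 in AE at -0.87 and Irf7 in ISC at 0.79, and just inside it was Slfn4 in AE at 1.34.

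By sign alone, all 4 genes were higher in KO ISC and all 4 were lower in KO CO. In ISC, 73.2% of genes were higher by any amount, and in CO 67.5% were lower, so that these directions were those of most genes in the tables. Both directions at once held for 47.5% of genes. In TA, 3 of the 4 genes, all but Ifit1, were higher by any amount, against 69.1% of genes, and in AE 3 of 4, all but Slfn4, were lower, against 62.0%. The median difference of the 4 genes was -0.29 in AE, -2.18 in CO, 0.67 in TA and 1.70 in ISC. Over all genes it was -0.13, -0.84, 0.17 and 0.41. Genes that a population's own table did not list had medians of -0.17 in AE (59 genes), 0.20 in CO (24), 0.15 in TA (66) and 0.34 in ISC (75). Each of them was listed in another population, and members not listed are among them, so this median is not a neutral zero. Whether it is a shift common to all genes was not tested. Relative to that median, Rsad2 differed by 2.70 in ISC and -2.79 in CO, Ifit1 by 1.57 and -2.55, Irf7 by 0.45 and -2.20, and Slfn4 by 1.16 and -0.66. Irf7 in AE was itself the gene at the median, so that no difference remained there.

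All 4 genes were higher in KO stem cells and lower in KO colon. Each direction alone was that of most genes in the tables, and both at once held for 47.5%. The CO difference minus the ISC difference was -5.63 for Rsad2, -4.26 for Ifit1, -2.79 for Irf7 and -1.96 for Slfn4. With a pseudocount of 1 these gaps were -2.75, -2.63, -2.63 and -1.78, so that Rsad2, Ifit1 and Irf7 were then close together. Between the differentiated populations the same subtraction, CO minus AE, gave -2.19, -1.49, -1.83 and -1.80 in that order of genes.

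Without a pseudocount, Ifit1 and Rsad2 were lower by at least 1 in KO CO and also higher by at least 1 in KO ISC. Together with them, 6 of 80 genes (7.50%) did so. The other 4 were H2-Q1, a class I histocompatibility gene with close relatives, with differences of 1.16 in ISC and -3.57 in CO, Lama3, a basement membrane laminin chain, with 1.02 and -2.38, Nt5e, the ectoenzyme CD73, with 1.00 and -1.27, and Pmp22, a membrane protein, with 1.82 and -2.09. Of the 31 genes lower by at least 1 in KO CO, 74.2% were higher in KO ISC by any amount. This is near the 73.2% of all genes, so nothing is read from that share.

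**Figure D3:**
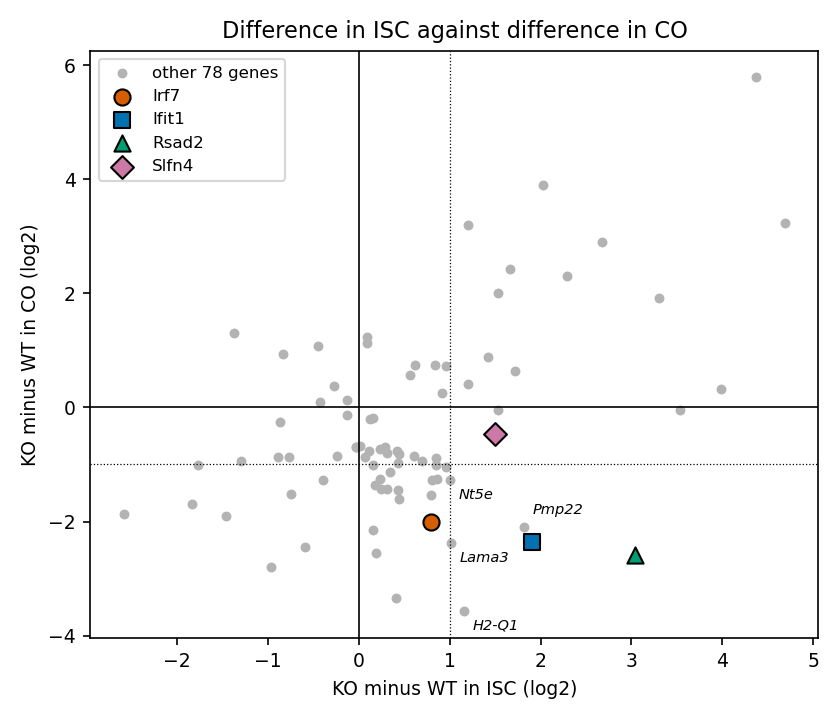
KO minus WT difference in ISC (horizontal axis) against that in CO (vertical axis), both in log2 units, for all 82 genes, with the 4 genes as coloured symbols. Dotted lines mark 1 in ISC and -1 in CO, and the 6 genes beyond both are Ifit1, Rsad2 and the 4 with names printed. Rsad2 is farthest to the right among these 6, and H2-Q1 is lowest.

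The order of levels was the same for Irf7, Ifit1 and Rsad2 in WT: AE, then CO, then TA, then ISC. WT AE was above WT CO by 1.56 for Irf7, 2.93 for Ifit1 and 0.74 for Rsad2. In KO, where CO was low and ISC high, these gaps were 3.39, 4.42 and 2.93, and ISC stood above CO for each of the 3 genes. For Slfn4 the WT order was CO, AE, ISC, TA, and the KO order was AE, CO, ISC, TA. Whether neighbours in these orders differ beyond the spread among libraries cannot be said from group means. AE against CO is also a contrast of small with large intestine. Per the methods, crypt material was digested with enzymes and villus material was not. AE thus differs from ISC, TA and CO in preparation too, and these contrasts cannot be told apart.

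Comparing the genes with one another needs a level per length, obtained by dividing by the kilobases of merged exons. These lengths were 3776 bases for Irf7, 2656 for Ifit1, 4335 for Rsad2 and 3964 for Slfn4. The Irf7 length is the whole gene, because transcripts that keep introns are annotated, and its principal transcript is 1916 bases long. On the log2 level per kilobase, Irf7 was the highest of the 4 in every group except KO CO, where Slfn4 stood at 2.82 and Irf7 at 1.39. Rsad2 was the lowest in all 8 groups, from -4.81 in WT ISC to 1.09 in WT AE. With the principal transcript in place of merged exons the order of the 4 genes was the same in all 8 groups.

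**Figure D4:**
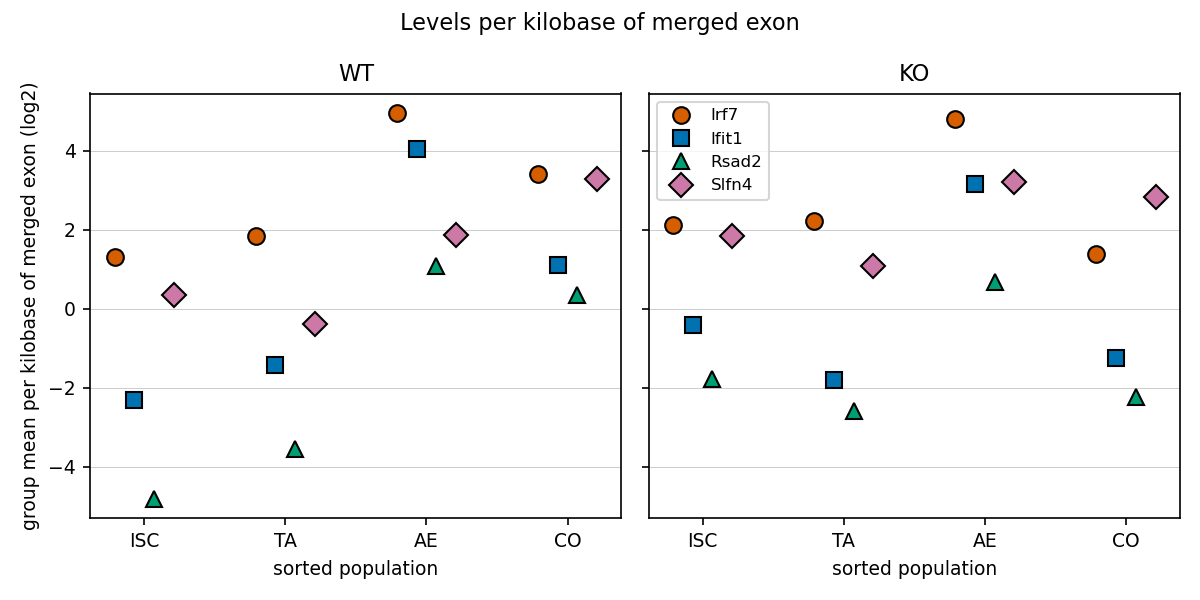
Log2 group mean per kilobase of merged exon (vertical axis) of the 4 genes in each sorted population (horizontal axis), WT on the left and KO on the right, with symbols shifted sideways for visibility. Irf7 is the top symbol except in KO CO, where Slfn4 is above it, and Rsad2 is the bottom symbol everywhere.

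Across the 8 group values, the levels of Irf7 and Ifit1 had a Pearson correlation of 0.972, Ifit1 and Rsad2 of 0.932, and Irf7 and Rsad2 of 0.908. Slfn4 had 0.511 with Irf7, 0.573 with Ifit1 and 0.761 with Rsad2. These are descriptions over 8 points that come from the same libraries and are spread mostly by cell type.

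The genes most like each member were taken by the distance over the 4 KO minus WT differences, where 0 would mean identical differences. Nearest to Irf7 were Ces2e, a carboxylesterase, at 0.47, Slco2a1, a prostaglandin transporter, at 0.69, and Btnl6, a butyrophilin-like gene, at 0.70. Nearest to Ifit1 were Lama3 at 1.14, Nt5e at 1.52 and Irf7 at 1.55. Nearest to Rsad2 were Ifit1 at 1.82, H2-Q1 at 2.14 and Lama3 at 2.16. Nearest to Slfn4 were Itln1, an intelectin of Paneth and goblet cells, at 1.20, Rtn4r, a receptor for myelin proteins, at 1.23, and Gsta3, a glutathione transferase, at 1.47. These neighbours depend on the measure. By Pearson correlation over the 8 values, 0 of the 3 named for Irf7 were named again, 2 for Ifit1, and 1 each for Rsad2 and Slfn4, and the gene nearest to Slfn4 was Pmp22, at 0.903.

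How much sequence is shared with near-identical genes differs among the 4, as searched over annotated transcripts and not the whole genome. Irf7 shares 45 exon bases, 1.19% of its merged exons, with Phrf1 on the opposite strand, and no stretch of 50 bases in its exons, the read length, occurs in another gene. Rsad2 shares none either. Of the 50-base stretches of Ifit1, 7.13% also occur elsewhere, mainly in Ifit1bl2 beside it. Of those of Slfn4, 11.3% do, in Slfn3, Gm11427 and Slfn2. Only uniquely mapped reads were counted, so reads from such stretches were left out. The levels of Ifit1 and Slfn4 may be understated for that reason, which does not hold for Irf7 and Rsad2.

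The wider interferon pathway was looked up in the tables. From a list of 89 genes by role, 5 had a row, the 4 above and Apobec3. The 4 have a row by the way they were chosen. The share of all tested genes with a row is not known here, so nothing is read from this count. None of the 10 ligands and receptors and none of the 10 sensors and adaptors had one, and Irf7 was the only one of 6 transcription factors. Of 7 Ifit and related effectors Ifit1 and Rsad2 were present, of 49 other effectors only Apobec3, and of 7 Schlafen genes only Slfn4. The other 84 genes were not analysed here, and a missing row leaves their direction unknown.

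Apobec3, a cytidine deaminase that edits viral DNA, was lower in KO in all 4 populations, with differences of -0.94 in AE, -0.25 in CO, -0.87 in ISC and -0.83 in TA, where it was listed. Its WT log2 level was 3.84 in AE, 5.70 in CO, 6.53 in TA and 6.64 in ISC. The crypt populations were thus high and the enterocytes low, and the 2 directions seen in Irf7, Ifit1 and Rsad2 were absent.

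On the tissue level, Ascl2, a transcription factor of intestinal stem cells, followed the labels in WT, with 6.05 in ISC, 4.24 in TA, 3.84 in CO and -0.18 in AE. Of 53 marker genes for immune, stromal, stem, proliferating, enterocyte, colonocyte, epithelial, Paneth and goblet cells, 4 had a row. Markers that define enterocytes and colonocytes were not among them, so the AE and CO labels could not be checked. In CO, where Irf7, Ifit1 and Rsad2 were lower in KO, Ascl2 was higher by 1.08 and was listed. That listing is why Ascl2 has a row, so its difference there is not an independent check. Each of the 4 markers has a row only because some population listed it. The direction of the other markers is unknown.

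Of 18 immune markers, Cd244, a receptor of natural killer and other blood cells, had a row. It was higher in KO by 3.53 in ISC and 3.39 in TA, the populations sorted without CD45 staining, and lower by -1.50 in AE. Only the TA table listed it. Its WT log2 levels were low, -0.56 in ISC, -1.82 in TA and 0.06 in AE. The KO levels were 2.97, 1.57 and -1.44 in that order, and no pseudocount was applied to these differences. The direction of the other immune markers is unknown. In CO it stood at the lowest value of the column in both genotypes. The secretory cell genes Lyz1 and Itln1 were higher in KO in all populations, in the order AE, CO, TA, ISC by 1.76, 0.64, 1.38 and 1.72 for Itln1 and by 2.11, 3.20, 1.64 and 1.20 for Lyz1. By sign in ISC, Cd244, Itln1 and Lyz1 were higher, as were all 4 genes, and Ascl2 was lower at -0.45. In TA all these markers were higher (Ascl2 by 0.17), as were the genes other than Ifit1. In AE, Itln1 and Lyz1 were higher with Slfn4, while Cd244 and Ascl2 (-0.05) were lower with Irf7, Ifit1 and Rsad2. In CO, Ascl2, Itln1 and Lyz1 were higher and all 4 genes lower. Of all genes in the tables, 73.2% were higher in KO ISC and 69.1% in KO TA. In AE 62.0% were lower and in CO 67.5%, so nothing is read from shared signs. The part of other cell types in these differences was not tested.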

How the data were processed

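The 24 libraries came from sorted cells of Vil-cre Smarcad1-KO and WT mice. Directional poly(A) libraries were made with 15 PCR cycles, from 10 ng RNA per the labels and from a range reaching lower per the methods, and sequenced as 50 base single reads. Per the submitters' processing notes and the methods, the authors trimmed reads with Trim Galore 0.4.4, mapped them to GRCm38 with HISAT2 2.1.0, counted uniquely mapped reads over merged transcripts in SeqMonk, and selected genes at an FDR limit of 0.1 with DESeq2 in each population. The deposited tables hold the means of each group on the log2 scale, described as normalised to total reads. In AE the lowest value is shared by genes with merged exons of 1987 to 14808 bases, so the values are not per kilobase. The sources used here do not say if averaging preceded the log. The authors' FDR and other statistics columns were not used. Single libraries and depth were not used here, so precision is not known and no test, interval or count floor was computed.

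Rows of the 4 tables, with 7 (ISC), 15 (TA), 20 (AE) and 56 (CO) genes, were joined by gene symbol into 82 genes. Differences between group means were computed in Python 3.11.15 with pandas 2.3.3. The distance ranking and the motif search were checked on simulated data, and the differences were not. Genes at the lowest value in both genotypes were left out of that population's counts, which leaves 82, 81, 79 and 80 genes. Named genes were the 4 members, genes of the interferon list with a row, the 3 genes nearest to each member by Euclidean distance over 4 differences, up to 5 further genes lower by at least 1 in KO CO and higher by at least 1 in KO ISC, and Smarcad1. Markers were named for the check of cell types. The members and lists were chosen with earlier results of these data known. All 4 members matched by symbol in GENCODE (coordinates, exons) and in the RefSeq promoter table (GRCm38.p6). Alternatives were a pseudocount of 1, raising values to 0.1, centring on unlisted genes, limits of 0.5 and 1.5, a minimum log2 value of 0, Pearson correlation, and a shorter promoter motif. A second promoter motif, TTCNNNGAA, was also searched.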

Additional observations from a re-analysis of the deposited data

How the results depend on the processing

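The tables used here hold group means, so no library was left out. No paired analysis was possible because the columns carry no replicate numbers. None of the 16 differences changed sign under any alternative, apart from Irf7 in AE, which became 0 on centring because that gene is the median itself. Raising values to 0.1 moved none of the 16 by 0.1 or more. With a pseudocount of 1, the differences were 0.97 for Ifit1, 0.98 for Rsad2 and 1.34 for Slfn4 in ISC, -0.17 for Ifit1, 0.33 for Rsad2 and 1.22 for Slfn4 in TA, and -1.90 for Irf7, -1.66 for Ifit1 and -1.77 for Rsad2 in CO. The pseudocount shrinks low values by construction, and 1 of the 4 genes was then higher by at least 1 in ISC in place of 3. Centring on the median of unlisted genes gave, for Irf7, Ifit1, Rsad2 and Slfn4 in turn, 0.45, 1.57, 2.70 and 1.16 in ISC, 0.21, -0.52, 0.81 and 1.31 in TA, 0.00, -0.70, -0.23 and 1.51 in AE, and -2.20, -2.55, -2.79 and -0.66 in CO. At a limit of 0.5, 2 genes were higher in TA in place of 1, and 1 was lower in AE in place of 0. At a limit of 1.5, 0 genes were higher in TA and 0 in AE in place of 1 in each. The other counts stayed within 1.5 times. The share of all genes was not computed under these alternatives, so nothing is read from the changed counts. By Pearson correlation over the 8 values, 0 of the 3 genes nearest to Irf7 were named again, 2 of 3 for Ifit1, and 1 of 3 for Rsad2 and for Slfn4. The shorter promoter motif matched in 3 genes in place of 2.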
